A study of Homo sapiens with 11 samples.

Results

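The RNAs described are 10 long noncoding RNAs that stay in the nucleus or are processed there: MALAT1, NEAT1, the snoRNA host RNAs GAS5, SNHG1, SNHG3, SNHG5, SNHG8, SNHG12 and ZFAS1, and the microRNA host MIR17HG. They were chosen by name, because MALAT1, NEAT1, SNHG3 and MIR17HG stood out after paclitaxel in these same libraries, so their paclitaxel values are given as a description with no test. The DMSO libraries behind that choice are also controls for other drugs, so the tests of these RNAs there are not wholly independent of it. Of the 23228 genes counted, 9 rows carried a member's symbol. The remaining member, ZFAS1, was found under ZNFX1-AS1, which RefSeq lists as its synonym, and it is shown beside the others but counted apart, so that member counts are of 9. All 10 passed the filter on low counts, as did 15888 genes in all.

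RNA was sequenced from MDA-MB231, a basal breast cancer line, and U2OS, an osteosarcoma line, with no genetic change named in the labels. Cells received the vehicle DMSO or, for 8 h, 1 of 4 drugs: methyl methanesulfonate (MMS) at 40 µg/mL, which alkylates DNA, doxorubicin at 1 µM, which poisons topoisomerase II and slips between DNA bases, etoposide at 20 µM, another poison of that enzyme, or paclitaxel at 0.2 µM, which stabilises microtubules. A line has a single library for each drug, and DMSO has 1 library in U2OS and 2 in MDA-MB231. Replicate 1 of MDA-MB231 DMSO served as control for doxorubicin, etoposide and paclitaxel in that line, and replicate 2, whose title carries 8hr as the MMS title does, served as control for MMS. Replicate 2 is called untreated in 1 label and DMSO in another, and the labels give no duration for the other DMSO libraries.

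Gene reads ranged from 16774156 to 31588683 per library. KRT19, a keratin of breast epithelium, was at 65.3 to 182 CPM (gene counts scaled to a common library size, with TMM factors) in MDA-MB231 and at no more than 0.344 in U2OS, and SPARC, a bone matrix protein, was at 596 to 1960 CPM in U2OS and at no more than 2.34 in MDA-MB231. Other listed markers went against the lines. KRT8 and KRT18, listed for MDA-MB231, were higher in U2OS DMSO (550 CPM against 225 and 268, and 409 against 202 and 245), while CDH11 (16.2 against 286 and 339) and RUNX2 (23.3 against 34.3 and 31.9), listed for U2OS, were lower there, and the bone genes COL1A2, BGLAP and SP7 were at or near 0 in U2OS as well. The 10 defining markers of blood, liver, pancreas, muscle and nerve cells summed to between 4 and 25 CPM per library. CD3E, INS and MYH6 were at or near 0. CD14 was at 1.16 to 14.1 CPM in MDA-MB231 and at most 2.15 in U2OS. TTN was at 3.65 to 7.73 CPM in MDA-MB231 and 1.68 to 4.37 in U2OS. GFAP was at 1.41 to 3.66 CPM in MDA-MB231 and at most 0.684 in U2OS. Of the 10 markers, 2 were called after drugs. ALB, at no more than 0.0512 CPM with DMSO, was called higher after doxorubicin (edgeR adjusted p = 0.00397) but reached at most 2.1 CPM, and SYP, at most 7.95 CPM, rose after doxorubicin (log2 fold change 1.29, edgeR adjusted p = 0.0187) and etoposide (2.14, edgeR adjusted p = 0.00905). Their part in the results was not tested. Bulk libraries cannot tell fewer cells from less RNA per cell.

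MALAT1 sits in nuclear speckles, bodies rich in splicing factors, and NEAT1 is the RNA around which paraspeckles form, bodies that hold RNA-binding proteins such as SFPQ and NONO. The SNHG RNAs, GAS5 and ZFAS1 carry small nucleolar RNAs (snoRNAs) in their introns. The snoRNAs guide chemical modification of ribosomal and other RNAs, and the spliced host is often destroyed when it is translated, through nonsense-mediated decay. Several hosts are transcribed from starts rich in C and T of the kind found in ribosomal protein genes. MIR17HG is the primary transcript of the miR-17-92 cluster, whose microRNAs restrain cell cycle inhibitors and pro-death genes, and which MYC is known to activate.

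The starts of the snoRNA hosts are shown as a feature that was not read from the counts. Starts rich in C and T are known for several hosts, so their frequency here only describes the family. Each window runs from 35 bases before the annotated start to 30 bases from it on, 5′ to 3′ on the strand of the RNA, from RefSeq on GRCh38.p14. Capitals mark the unbroken run of C and T that holds the start base.
SNHG1, chr11:62855856-62855920, minus strand: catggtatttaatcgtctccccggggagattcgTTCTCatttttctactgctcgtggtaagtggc
SNHG5, chr6:85678704-85678768, minus strand: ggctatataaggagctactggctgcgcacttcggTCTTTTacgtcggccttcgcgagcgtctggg
SNHG8, chr4:118278727-118278791, plus strand: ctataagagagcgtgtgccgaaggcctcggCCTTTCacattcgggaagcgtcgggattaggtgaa
SNHG12, chr1:28581844-28581908, minus strand: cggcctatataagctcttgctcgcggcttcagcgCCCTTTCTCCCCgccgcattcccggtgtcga
ZFAS1, chr20:49278607-49278671, plus strand: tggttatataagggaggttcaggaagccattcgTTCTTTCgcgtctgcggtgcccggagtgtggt
GAS5, chr1:173869016-173869080, minus strand: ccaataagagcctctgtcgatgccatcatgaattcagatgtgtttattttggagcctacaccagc
SNHG3, chr1:28505908-28505972, plus strand: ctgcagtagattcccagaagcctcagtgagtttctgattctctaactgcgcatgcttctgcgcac
A run of at least 5 C or T bases held the start in 5 of 7 hosts, from 5 bases in SNHG1 to 12 in SNHG12, and in none of GAS5 and SNHG3. Among all 35116 RefSeq windows 9.6% had such a run. The letters TATAA, looked for on the strand of the RNA 20 to 40 bases before the start after the sequences had been seen, stood in 4 of the 7 (SNHG5, SNHG8, SNHG12 and ZFAS1) and in 3.91% of all windows. On either strand anywhere in the 300-base RefSeq window, TATAA was in 20.4% of all windows. CACGTG, the E-box that MYC can bind, which reads the same on both strands, was found in 0 of the 9 members with a window and in 7.26% of all windows. These are matches of letters only, and RefSeq starts need not be the starts used in these cells.

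MIR17HG carries 6 main mature microRNAs, shown because their seeds set which messages the host's products can pair with. Capitals mark the seed, bases 2 to 8 (RefSeq, GRCh38.p14).
hsa-miR-17-5p, chr13:91350618-91350640, plus strand: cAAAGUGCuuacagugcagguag
hsa-miR-20a-5p, chr13:91351072-91351094, plus strand: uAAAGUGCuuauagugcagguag
hsa-miR-18a-5p, chr13:91350756-91350778, plus strand: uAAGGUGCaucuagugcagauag
hsa-miR-19a-3p, chr13:91350939-91350961, plus strand: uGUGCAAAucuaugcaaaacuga
hsa-miR-19b-3p, chr13:91351245-91351267, plus strand: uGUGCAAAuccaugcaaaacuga
hsa-miR-92a-3p, chr13:91351361-91351382, plus strand: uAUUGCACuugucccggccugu
The 6 RNAs share 4 seeds: miR-17-5p and miR-20a-5p have the same one, and so do miR-19a-3p and miR-19b-3p. The tables hold rows for the 6 precursors, all with 0 reads in all 11 libraries, so the values below are of the host transcript alone.

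In DMSO, the RNA that differed most between the lines was SNHG5. SNHG5 was at 116 and 132 CPM in MDA-MB231 and at 15.1 in U2OS, 8.23-fold lower. NEAT1 was at 493 CPM in U2OS and at 257 and 111 in MDA-MB231. The 2 MDA-MB231 DMSO libraries thus differed from each other by a log2 ratio of -1.2 in NEAT1 (95% counting interval -1.28 to -1.13), and between them 1.78% of 10832 genes differed 2-fold or more. For the other 9 RNAs the same ratio lay between -0.45 and 0.18. U2OS lay outside the range of the MDA-MB231 DMSO libraries for every member but SNHG3, at 61.2 CPM against 76 and 55.6. SNHG1 was at 103 CPM in U2OS against 195 and 191, and MIR17HG at 2.77 against 7.32 and 5.44.

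**Figure D1:**
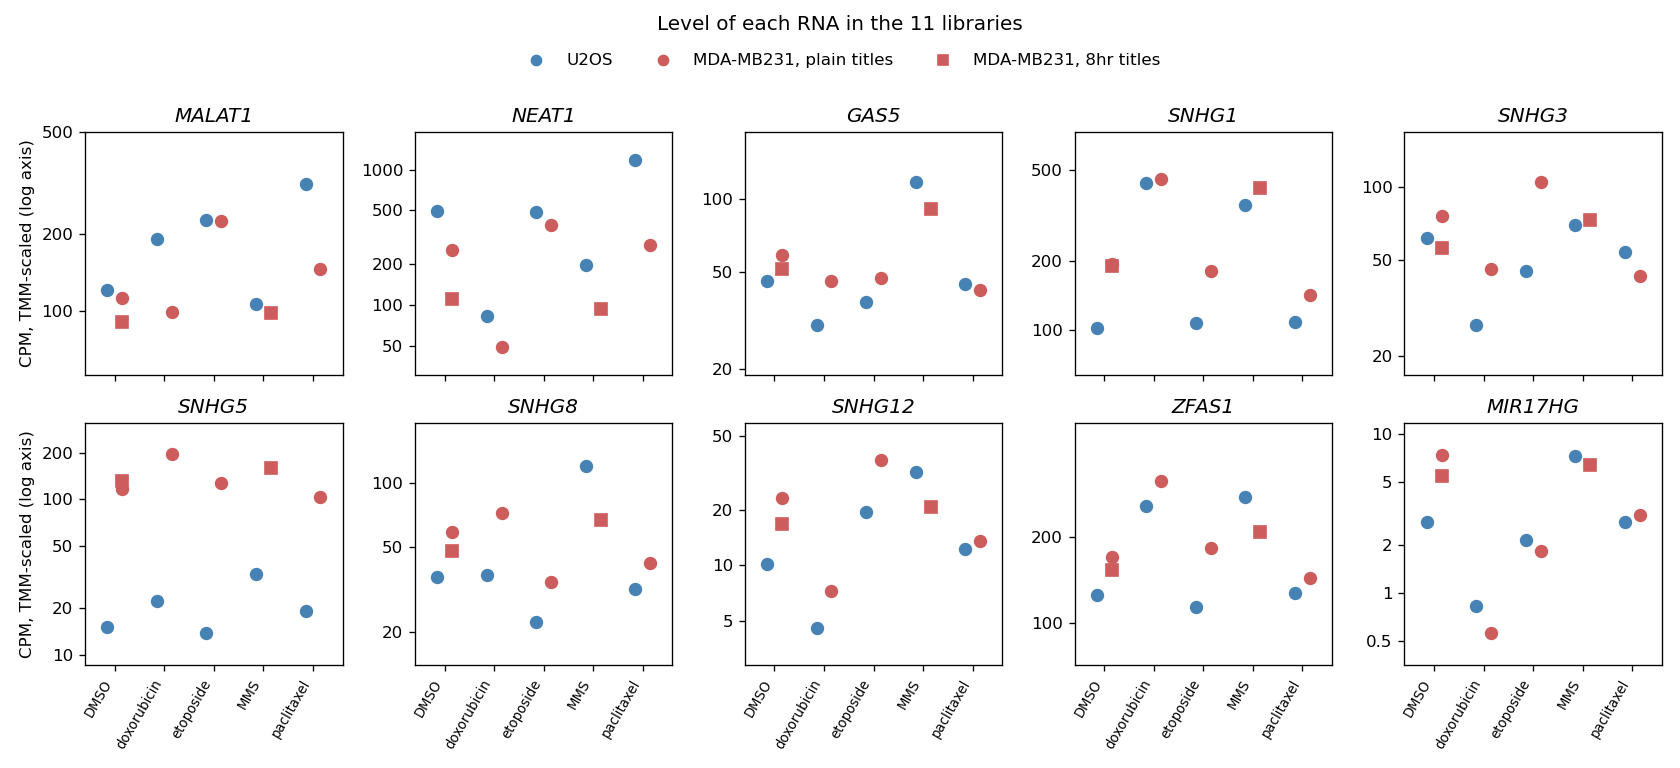
Level of each RNA, in CPM scaled by TMM on a log axis, by treatment, with 1 point per library (blue circles U2OS, red circles MDA-MB231 libraries with plain titles, red squares MDA-MB231 libraries whose titles carry 8hr). NEAT1 spans 49.1 to 1180 CPM, SNHG1 is highest after doxorubicin and MMS in both lines, and MIR17HG is lowest after doxorubicin in both.

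Doxorubicin lowered NEAT1, MIR17HG, SNHG12 and SNHG3 and raised SNHG1 and ZFAS1. The mean response over the 2 lines was fitted with edgeR's quasi-likelihood test over all 11 libraries, so the lines act as the replicates of a drug, and p-values measure the spread between these libraries. Of the 9 members 5 were called at an adjusted p under 0.05, where 42.5% of all 15888 genes were called, and 1 was higher, where 21.9% of all genes were. The median log2 fold change of the 9 was -0.54, against 0.07 over all genes tested. Etoposide changed 1 of 9, MALAT1, where 17.2% of all genes were called, with a median of -0.09 against 0.02. MMS raised 3 of 9, GAS5, SNHG1 and SNHG8, and ZFAS1 beside them, and lowered 0, where 10.4% of all genes were called and 5.23% were called higher. The median after MMS was 0.75 against -0.04. All comparisons of a line share its DMSO library, so their values are not independent.

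**Figure D2:**
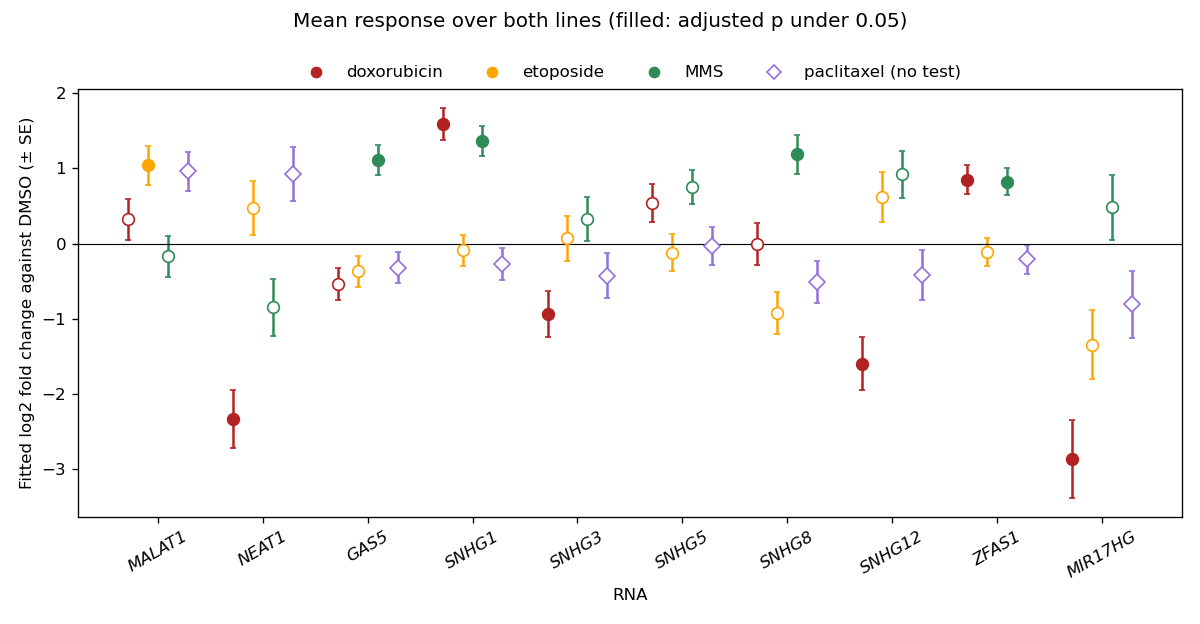
Fitted log2 fold change against DMSO, mean over both lines, with its SE, for each RNA and drug (filled circles: adjusted p under 0.05; open circles: not called; diamonds: paclitaxel, not tested). NEAT1 at -2.34 and MIR17HG at -2.87 lie lowest, both after doxorubicin, and SNHG1 at 1.59 highest.

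MALAT1 rose after etoposide. Its level was 225 CPM in MDA-MB231 and 227 in U2OS with etoposide, against 112, 90.3 and 121 in the DMSO libraries. Both etoposide libraries thus lay above all 3 controls. The fitted log2 fold change was 1.04 ± 0.26 (SE), a 2.05-fold rise (edgeR adjusted p = 0.0311). The call was lost, with adjusted p between 0.0572 and 0.245, when any of 6 libraries was left out (MDA-MB231 DMSO replicate 1, DMSO replicate 2, etoposide or MMS, or U2OS DMSO or MMS). After doxorubicin MALAT1 was at 99.4 CPM in MDA-MB231 and 192 in U2OS, below 1 MDA-MB231 control (112) and above the other (90.3), and above the U2OS control, with a fitted value of 0.32 ± 0.27 (edgeR adjusted p = 0.358). After MMS it was at 98.6 and 107 CPM, within the range of the controls (-0.17 ± 0.27, edgeR adjusted p = 0.722).

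NEAT1 fell in both lines after doxorubicin. With the drug it was at 49.1 CPM in MDA-MB231, against 257 with DMSO (1050 against 6534 reads), and at 83.1 in U2OS against 493 (1702 against 9617 reads). Both libraries lay below all 3 DMSO libraries, the lowest of which, MDA-MB231 replicate 2, was at 111 CPM. The fitted fall was 5.05-fold (log2 fold change -2.34 ± 0.39, edgeR adjusted p = 0.00184). In MDA-MB231 the log2 ratio was -2.38 against its own control and -1.17 against the other DMSO library, which was 2.3-fold lower in NEAT1. After etoposide, the other topoisomerase II poison, NEAT1 was at 487 CPM in U2OS, close to its control, and at 392 in MDA-MB231, above both controls. In MDA-MB231 the log2 ratio was 0.61 against its own control and 1.81 against the other DMSO library. The fitted value of 0.47 ± 0.36 was not called (edgeR adjusted p = 0.4). After MMS NEAT1 was at 93.2 CPM in MDA-MB231 and 199 in U2OS, and its value of -0.85 ± 0.38 was not called (edgeR adjusted p = 0.176). The files count 1 NEAT1 row, so its short and long isoforms cannot be told apart.

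Among the snoRNA hosts, SNHG1 rose after both doxorubicin and MMS. With doxorubicin it was at 454 CPM in MDA-MB231 and 438 in U2OS, and with MMS at 417 and 349, against 195, 191 and 103 with DMSO. All 4 treated libraries lay above all 3 controls. The fitted rises were 3.01-fold after doxorubicin (1.59 ± 0.21, edgeR adjusted p = 0.000692) and 2.56-fold after MMS (1.36 ± 0.20, edgeR adjusted p = 0.00884). Etoposide left it at 181 and 108 CPM (-0.09 ± 0.21, edgeR adjusted p = 0.8). ZFAS1 had calls for the same drugs, at 312 and 255 CPM after doxorubicin and 207 and 276 after MMS in MDA-MB231 and U2OS, against 170, 153 and 125 with DMSO. Its fitted log2 fold changes were 0.85 ± 0.19 (edgeR adjusted p = 0.00707) and 0.82 ± 0.18 (edgeR adjusted p = 0.0274). The doxorubicin call of ZFAS1 was lost without MDA-MB231 DMSO replicate 1 (adjusted p = 0.0539).

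GAS5 rose after MMS. It was at 91.3 CPM in MDA-MB231 and 118 in U2OS, above the DMSO libraries at 58.6, 51.5 and 46.2. The fitted value was 1.11 ± 0.20, a 2.15-fold rise (edgeR adjusted p = 0.0144). With doxorubicin GAS5 lay below all 3 controls, at 45.9 and 30.3 CPM, but its value of -0.54 ± 0.21 was not called (edgeR adjusted p = 0.0627). With total-count scaling it was called (-0.75, adjusted p = 0.0308), as it was with no filter (0.0372) and without MDA-MB231 doxorubicin (-0.84, 0.0298). SNHG8 rose after MMS too, to 67 CPM in MDA-MB231 and 120 in U2OS, against 58.9, 47.8 and 36.2 with DMSO. The fitted value was 1.19 ± 0.26, a 2.28-fold rise (edgeR adjusted p = 0.0268). After etoposide SNHG8 was below all 3 controls, at 34.2 and 22.3 CPM, with a value of -0.93 ± 0.28 that missed the threshold (edgeR adjusted p = 0.0531) and passed it with DESeq2 (0.0147), limma-voom (0.042), no filter (0.0416) and the etoposide libraries and their controls alone (-0.74, 0.0442). It also passed without MDA-MB231 DMSO replicate 2 (0.0411), MDA-MB231 MMS (0.0407) or U2OS MMS (0.0425).

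The MMS calls depended on which libraries were fitted. Without U2OS MMS, which leaves 1 MMS library, the calls were lost. The values were then 1.12 for SNHG1, 0.83 for GAS5, 0.49 for SNHG8 and 0.44 for ZFAS1. With U2OS MMS they were 1.36, 1.11, 1.19 and 0.82. The share of all genes called in that fit is not given, so the lost calls are no result about the members alone. Without U2OS DMSO, 1 member was called: GAS5 was at 1.02 (0.0756), SNHG8 at 1.01 (0.127) and ZFAS1 at 0.72 (0.132). The calls of SNHG8 (0.0825) and ZFAS1 (0.0815) were also lost without MDA-MB231 DMSO replicate 1, with a block for line alone (0.0704 and 0.0554) and with the MMS libraries and their controls alone (0.112 and 0.0796), and with no block all 4 were lost (0.249 to 0.511). In the fit without U2OS MMS the lone MMS library is assumed to vary like the others.

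SNHG12 fell after doxorubicin, the opposite direction to SNHG1. It was at 7.25 CPM in MDA-MB231 and 4.59 in U2OS, with 155 and 94 reads, against 23, 16.7 and 10.2 CPM with DMSO. The fitted fall was 3.03-fold (-1.60 ± 0.35, edgeR adjusted p = 0.00629). After etoposide it was at 36.9 and 19.4 CPM and after MMS at 20.6 and 32.1, and neither value was called (0.62 ± 0.33, edgeR adjusted p = 0.216, and 0.92 ± 0.31, edgeR adjusted p = 0.0928). DESeq2 called the MMS value (0.94, adjusted p = 0.0411). SNHG3 also fell after doxorubicin, to 45.9 CPM in MDA-MB231 and 26.8 in U2OS, against 76, 55.6 and 61.2 with DMSO (-0.94 ± 0.31, edgeR adjusted p = 0.0348). This call was lost, with adjusted p between 0.0574 and 0.237, without any of 6 libraries: MDA-MB231 DMSO replicate 1, doxorubicin or MMS, or U2OS DMSO, doxorubicin or MMS. SNHG5 was at 195 and 22.3 CPM after doxorubicin and at 160 and 33.2 after MMS, above the controls of its own line each time, and its values of 0.54 ± 0.25 (edgeR adjusted p = 0.11) and 0.75 ± 0.23 (edgeR adjusted p = 0.0717) were not called. SNHG5 was called after MMS with DESeq2 (0.77, adjusted p = 0.0307), without MDA-MB231 DMSO replicate 2 (1.13, 0.0479) and without MDA-MB231 MMS (1.13, 0.0473). After doxorubicin it was called with that drug's libraries and controls alone (0.66, 0.0446), without MDA-MB231 MMS (0.65, 0.0465) and without U2OS MMS (0.65, 0.0449).

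Some of these rows overlap other genes, and the strand setting of the counting is not given in the sources used here. RCC1 shares exons with SNHG3 on the same strand, and its value after doxorubicin was -0.62 ± 0.21 (edgeR adjusted p = 0.044). Reads that fit both genes went uncounted, and whether the overlap bears on the fall of SNHG3 was not tested. ZNFX1, which overlaps the head of ZFAS1 on the opposite strand, fell after doxorubicin (-1.13 ± 0.23, edgeR adjusted p = 0.00498) while ZFAS1 rose. TRNAU1AP, whose end meets that of SNHG12 on the opposite strand, was at 0.56 ± 0.20 (edgeR adjusted p = 0.0528) while SNHG12 fell. SLC3A2, an amino acid transporter chain transcribed away from a start beside that of SNHG1, rose after MMS (1.38 ± 0.17, edgeR adjusted p = 0.0056) and was at 0.33 ± 0.17 after doxorubicin (edgeR adjusted p = 0.155).

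MIR17HG, the microRNA host, fell after doxorubicin. It was at 0.561 CPM in MDA-MB231 against 7.32 with DMSO, which is 12 against 186 reads, and at 0.83 in U2OS against 2.77, which is 17 against 54 reads. Both libraries lay below all 3 controls, and the fitted fall was 7.32-fold (-2.87 ± 0.52, edgeR adjusted p = 0.00266). Without MDA-MB231 DMSO replicate 1 the value was -2.24 (adjusted p = 0.0227), and over all libraries left out in turn it lay between -3.36 and -2.24. After etoposide it was at 1.83 CPM in MDA-MB231 and 2.16 in U2OS, below all 3 controls, but the value of -1.35 ± 0.46 was not called (edgeR adjusted p = 0.0735). DESeq2 called it (-1.36, adjusted p = 0.0401). After MMS it was at 6.34 and 7.25 CPM (0.48 ± 0.43, edgeR adjusted p = 0.508). Its counts of 12 to 186 reads per library give it the widest counting intervals of the members. MYC, the known activator of the cluster, fell after doxorubicin (-0.90 ± 0.31, edgeR adjusted p = 0.0433) and etoposide (-1.31 ± 0.31, edgeR adjusted p = 0.0255), while E2F1, another, rose after doxorubicin (1.10 ± 0.24, edgeR adjusted p = 0.00617).

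Drugs were also compared with each other in the same fit, a step added after the data had been seen. Doxorubicin against etoposide differed in 6 of 9 members, 2 higher and 4 lower, where 46.4% of all genes differed. NEAT1 was 6.99-fold lower with doxorubicin (-2.80 ± 0.41, edgeR adjusted p = 0.000768) and SNHG12 4.66-fold lower (-2.22 ± 0.35, edgeR adjusted p = 0.00119). SNHG1 was 3.21-fold higher (1.68 ± 0.22, edgeR adjusted p = 0.000485), and ZFAS1 was 1.95-fold higher (0.96 ± 0.20, edgeR adjusted p = 0.00402). SNHG3, SNHG8 and MIR17HG also differed, and 3 of 9 members were called when either MDA-MB231 doxorubicin or MDA-MB231 etoposide was left out. MMS against doxorubicin differed in 6 of 9 members, all higher with MMS, where 42.6% of all genes differed. MIR17HG was 10.2-fold higher (3.35 ± 0.56, edgeR adjusted p = 0.00181), SNHG12 5.73-fold (2.52 ± 0.38, edgeR adjusted p = 0.0012) and GAS5 3.14-fold (1.65 ± 0.24, edgeR adjusted p = 0.000957), with NEAT1, SNHG3 and SNHG8 the other 3. The NEAT1 call was lost in 9 of 17 alternatives, among them those without either MDA-MB231 DMSO library. Its value of 1.49 ranged from 1.08 to 2.22 over the 17. MMS against etoposide differed in 3 of 9, GAS5, SNHG1 and SNHG8, all higher with MMS, where 9.06% of all genes differed. Without U2OS MMS, which leaves 1 MMS library, calls of members were lost in both MMS contrasts, and the share of all genes called is not given. Against doxorubicin MIR17HG was then at 3.03, GAS5 at 1.31 and NEAT1 at 2.22, while SNHG12 went from 2.52 to 1.74 and SNHG8 from 1.19 to 0.32. Against etoposide SNHG8 went from 2.11 to 1.23. Without U2OS doxorubicin 3 of 9 were called for MMS against doxorubicin. For MMS against etoposide 0 of 9 were called without U2OS etoposide, at values close to those with it: SNHG8 at 2.09 (0.0513), GAS5 at 1.43 (0.0536) and SNHG1 at 1.26 (0.0679). That count was 5 of 9 without MDA-MB231 or U2OS doxorubicin.

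Within each line a drug had 1 library against 1 DMSO library, so ratios have no replicate check, and their intervals cover counting error only. With doxorubicin 1 member was at least 2-fold higher and 3 at least 2-fold lower in each line, among 9 members counted in MDA-MB231 and 8 in U2OS, where 27% and 32.6% of genes were that far from their control. The genes counted reached 5 CPM in either library of the pair. NEAT1 had a log2 ratio of -2.38 in MDA-MB231 and -2.56 in U2OS, and SNHG1 one of 1.21 and 2.08. With etoposide 2 of 9 members in MDA-MB231 passed 2-fold, MALAT1 at 1.01 and MIR17HG at -1.74, and 0 of 8 in U2OS, with 19.8% and 13.6% of genes.

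After MMS most members had larger ratios in U2OS than in MDA-MB231. In U2OS 6 of 9 were at least 2-fold higher and NEAT1 was 2.48-fold lower, with 18.6% of genes past 2-fold either way. SNHG1 had a log2 ratio of 1.75, SNHG8 1.72, SNHG12 1.61, GAS5 1.35, MIR17HG 1.25 and SNHG5 1.12. In MDA-MB231 only SNHG1, at 1.12, passed 2-fold, with 6.11% of genes. SNHG8 was at 0.48, SNHG12 at 0.30, GAS5 at 0.82, MIR17HG at 0.21 and SNHG5 at 0.28 there. NEAT1 was at -0.26 in MDA-MB231, and at -1.46 against the other DMSO library of that line, beyond the U2OS value of -1.31. A term for treated U2OS cells over the 4 drugs together, paclitaxel included, called 0 of 9 members and 0% of all genes with edgeR, where 204 genes and 1 member had an unadjusted p under 0.05. That member was MIR17HG, at 1.43 ± 0.57 (1.17 to 1.58 over 15 alternatives). It was picked partly for its paclitaxel values, which enter this term, so its p-value is not an independent test. limma-voom called 0 of 9 as well. The difference between the lines for MMS alone was not tested.

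**Figure D3:**
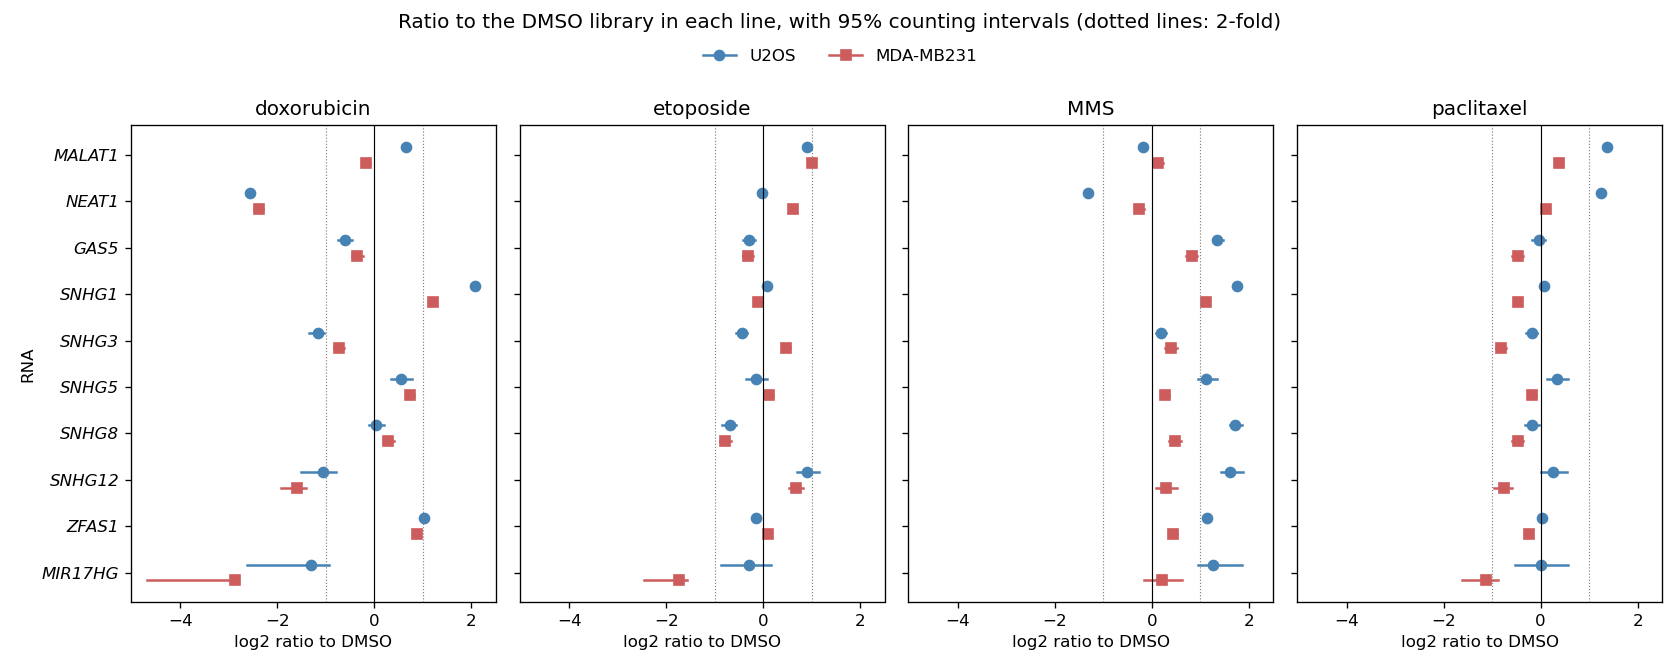
log2 ratio of each RNA to the DMSO library of its own line, by drug, with the 95% exact binomial interval for counting error (blue circles U2OS, red squares MDA-MB231, dotted lines 2-fold either way). After MMS the U2OS points of SNHG8, SNHG12, GAS5 and SNHG1 lie at 1.35 or more, and after paclitaxel MALAT1 and NEAT1 pass 2-fold in U2OS and not in MDA-MB231 against its replicate 1 control (against replicate 2 NEAT1 is at 1.31). The offset of 0.5 CPM pulls ratios of MIR17HG toward 0, so its point can lie at the edge of its interval.

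Paclitaxel is the drug on which the members were picked. MALAT1 was at 313 CPM in U2OS against 121 with DMSO, and at 146 in MDA-MB231 against 112. NEAT1 was at 1180 CPM in U2OS against 493, and at 278 in MDA-MB231 against 257. Both RNAs were thus more than 2-fold higher in U2OS, with log2 ratios of 1.36 and 1.25, and 1.3-fold and 1.08-fold higher in MDA-MB231, with ratios of 0.38 and 0.11. Against the other MDA-MB231 DMSO library, at 111 CPM, NEAT1 had a ratio of 1.31 in that line, past 2-fold as well. In U2OS 10 of 11266 genes, or 0.0888%, passed 2-fold, and these members are 2 of them. In MDA-MB231 51 of 10832 genes, or 0.471%, did, and MIR17HG is 1 of them, at 3.1 CPM against 7.32 (88 against 186 reads), a log2 ratio of -1.12 that was -0.72 against the other DMSO library. In U2OS MIR17HG was at 2.79 CPM against 2.77. Between the 2 MDA-MB231 DMSO libraries 1.78% of 10832 genes differed 2-fold or more, a larger share than paclitaxel gave in either line. NEAT1 was among them, at 2.3-fold. SNHG3 was at 42.9 CPM in MDA-MB231 against 76, and at 53.8 in U2OS against 61.2. The mean log2 fold changes were 0.96 ± 0.26 for MALAT1, 0.93 ± 0.36 for NEAT1, -0.43 ± 0.30 for SNHG3 and -0.81 ± 0.45 for MIR17HG. Without U2OS paclitaxel NEAT1 was at 0.05 and MALAT1 at 0.53, and without MDA-MB231 paclitaxel SNHG3 was at 0.03. The fit called 0 of 15888 genes, or 0%, for paclitaxel, with 110 at an unadjusted p under 0.05, while DESeq2 called 0 and a fit of the paclitaxel and DMSO libraries alone called 30.

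The other snoRNA hosts had values between -0.47 and -0.17 for SNHG1, SNHG5, GAS5, SNHG8 and ZFAS1 in MDA-MB231 after paclitaxel, and between -0.18 and 0.34 in U2OS, as log2 ratios. SNHG12 was at 13.5 CPM in MDA-MB231 against 23 and at 12.3 in U2OS against 10.2.

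Reads in the snoRNA rows did not follow their hosts throughout. The rows lie in introns, so mature snoRNAs and unspliced host RNA cannot be told apart, and a library's recovery of small RNAs was not measured. Of 30 snoRNAs listed for the members 28 had a row and 25 passed the filter, and after doxorubicin 2 were higher, 7 lower and 16 not called, beside 42.5% of all genes called, so that the share called is near that of all genes, with a median of -1.16 against 0.07 over all genes. Of the 9 tested snoRNAs of GAS5, 6 were lower, from SNORD81 at -1.74 ± 0.50 to SNORD44 at -2.70 ± 0.66. SNORA61 of SNHG12 was lower too (-1.54 ± 0.42). None of these met the rule for named genes, which asks for 1 sign in both lines and at least 5 CPM in each. Single rows are low, since the 10 GAS5 rows together held 14.8 CPM in U2OS DMSO and 21.1 in MDA-MB231 DMSO replicate 1. The summed reads of GAS5 snoRNAs went from 536 to 126 in MDA-MB231, a log2 ratio of -1.84 (counting interval -2.13 to -1.56), where the host ratio was -0.35. In U2OS they went from 289 to 201, a ratio of -0.59, beside -0.60 for the host. Of the 8 snoRNAs of SNHG1, 2 were higher after doxorubicin, SNORD22 (1.62 ± 0.41, edgeR adjusted p = 0.0116) and SNORD31 (1.5 ± 0.49, edgeR adjusted p = 0.0335), and their sum had a ratio of 0.44 in MDA-MB231 and 1.39 in U2OS, beside 1.21 and 2.08 for the host. After MMS 0 of the 25 were called, with a median of 0.20, and the GAS5 sum had ratios of 0.23 and 0.21 in MDA-MB231 and U2OS, beside host ratios of 0.82 and 1.35. After etoposide 0 of 25 were called, with a median of 0.06. The 2 MDA-MB231 DMSO libraries differed by -0.52 in the GAS5 sum and -0.56 in the SNHG1 sum.

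**Figure D4:**
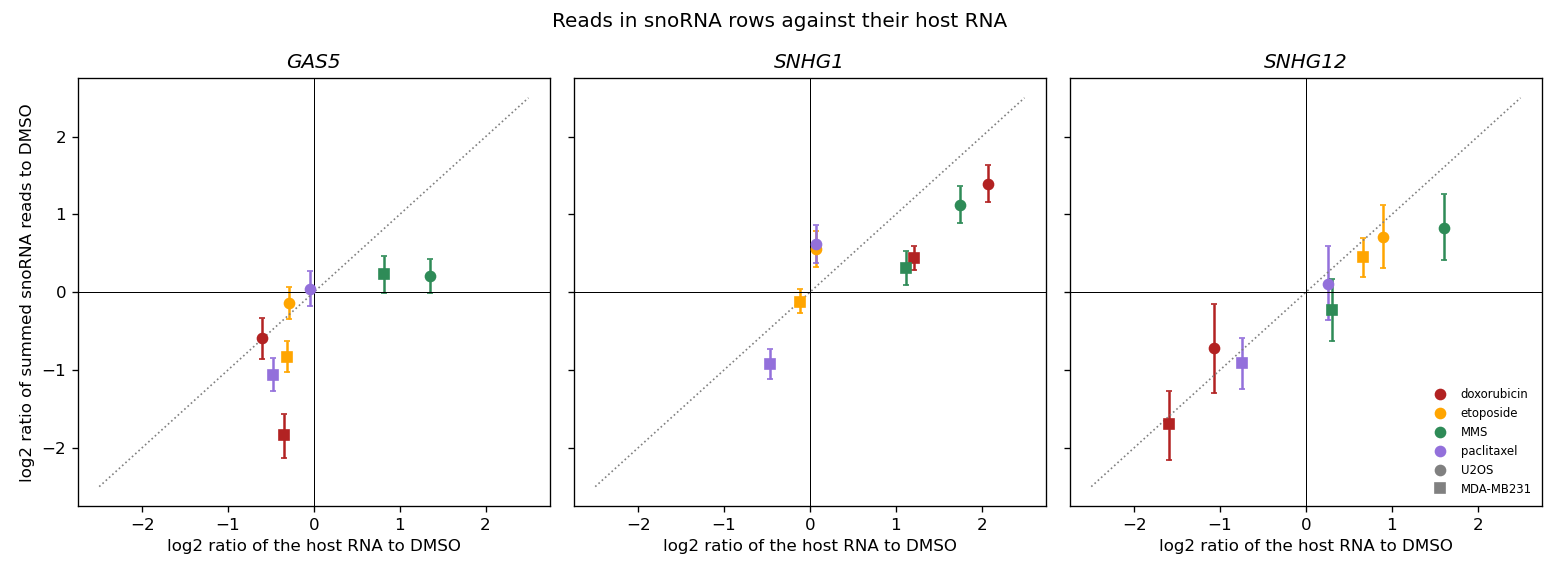
log2 ratio of the summed snoRNA reads of GAS5, SNHG1 and SNHG12 to DMSO (vertical, with 95% counting intervals) against the ratio of the host RNA (horizontal), with 1 point per line and drug (circles U2OS, squares MDA-MB231, colours drugs) and a dotted line of equality. The GAS5 sum after doxorubicin in MDA-MB231 lies at -1.84 beside a host ratio of -0.35, and after MMS the sums of GAS5 and SNHG1 lie below their hosts.

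Of 24 other snoRNA hosts listed, 15 were tested. The counts of this and the following lists stand beside 42.5% of all genes called after doxorubicin, 17.2% after etoposide and 10.4% after MMS. After doxorubicin 3 rose, SNHG9 (1.30 ± 0.26), SNHG10 (0.94 ± 0.31) and SNHG6 (0.93 ± 0.18), and 7 fell (median -0.52 against 0.07), among them SNHG7 (-1.97 ± 0.35), EIF4A2, a translation helicase (-1.76 ± 0.23), GNL3, nucleostemin (-1.48 ± 0.21), and HSPA8, a chaperone (-1.40 ± 0.30). After MMS 4 rose and 0 fell (median 0.29 against -0.04): SNHG11 (1.10 ± 0.27), EIF4A2 (0.97 ± 0.21), TAF1D (0.80 ± 0.16) and HSPA9 (0.69 ± 0.15). EIF4A2 was thus lower with doxorubicin and higher with MMS. After etoposide 1 rose, SNHG9 (0.98 ± 0.26), and 0 fell (median -0.36 against 0.02). Of 15 tested nuclear long noncoding RNAs outside the members, HOTAIR rose (2.37 ± 0.66) and MIR210HG fell (-2.05 ± 0.43) after doxorubicin (median 0.54). After etoposide 2 fell (median -0.21), PVT1 (-1.42 ± 0.25) and MIR100HG (-1.65 ± 0.43), and after MMS MIR210HG fell (-3.63 ± 0.52, median -0.12). HOTAIR and MIR210HG missed the rule for named genes, which asks for 1 sign in both lines and at least 5 CPM in each.

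Among 20 paraspeckle proteins, the partners of NEAT1, 4 rose and 9 fell after doxorubicin (median -0.36), where 42.5% of all genes were called. SFPQ was at -1.32 ± 0.25, TARDBP at -1.38 ± 0.17 and RBM4B at -1.43 ± 0.26. Those that rose included CIRBP, a cold-inducible RNA-binding protein (1.37 ± 0.18), EWSR1 (0.62 ± 0.16) and HNRNPK (0.48 ± 0.13). After etoposide RBM4B rose (0.85 ± 0.25) and 7 fell (median -0.26), with PSPC1 at -1.22 ± 0.23 and HNRNPK at -0.98 ± 0.13. After MMS none was called (median -0.13). Among 20 nuclear speckle proteins, the surroundings of MALAT1, U2AF2 rose (0.66 ± 0.12) and 8 fell after doxorubicin (median -0.44). The splicing factor SRSF3 went down from 358 to 30.3 CPM (U2OS) and 430 to 86.7 CPM (MDA-MB231), at -2.85 ± 0.30, and SRSF6 (-2.29 ± 0.16) and SRSF7 (-2.02 ± 0.29) fell too. After MMS 5 rose and 0 fell (median 0.36): SRSF6 (1.19 ± 0.14), SRSF7 (0.99 ± 0.26), TRA2A, TRA2B and SRRM1. After etoposide SRSF5 rose (0.60 ± 0.16) and SRSF7 (-1.04 ± 0.27) and SRSF1 (-0.63 ± 0.18) fell (median -0.18).

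Of 20 proteins that build snoRNPs, the particles of snoRNAs, 10 fell and 0 rose after etoposide (median -0.62), led by RUVBL1 (-1.50 ± 0.19) with NOP58, a core protein (-1.15 ± 0.16), and DKC1, the pseudouridine synthase (-1.16 ± 0.20). After doxorubicin 5 rose, NHP2, NOP10, FBL, RUVBL2 and NHP2L1, between 0.48 and 0.86, and 7 fell, with ZNHIT6 at -1.49 ± 0.19 (median 0.12), and after MMS none was called (median 0.14). Of 20 factors of nonsense-mediated decay, which destroys many host RNAs, EIF4A3 rose (0.67 ± 0.19) and 6 fell after doxorubicin (median -0.16), with SMG9 at -2.37 ± 0.47. After MMS 4 rose and 0 fell (median 0.29): UPF3B (0.91 ± 0.21), SMG8, NCBP2 and SMG5. After etoposide SMG8, PNRC2 and EIF4A3 rose and MAGOHB fell (median 0.05). Of 20 factors of nuclear RNA decay and 3′ end formation, PABPN1 (1.15 ± 0.26) and EXOSC5 (0.59 ± 0.20) rose and 11 fell after doxorubicin (median -0.59), among them the exosome subunit EXOSC3 (-1.82 ± 0.20) and RBM7 (-1.80 ± 0.28). After etoposide EXOSC2, EXOSC5 and EXOSC7 fell and 0 rose (median -0.07), and after MMS 1 rose and 0 fell (median 0.07), ZCCHC8 (0.80 ± 0.15). Of 20 tested regulators of miR-17-92 and factors of microRNA processing, E2F1, E2F3 and MCM7 rose and DDX17, a helicase (-2.64 ± 0.24), MYC, TARBP2 and DICER1 fell after doxorubicin (median -0.14). After etoposide 3 fell (median -0.33), CCND1 and MYC among them, and after MMS DGCR8, the microprocessor partner, rose (0.73 ± 0.16) and CCND1 (-1.63 ± 0.31), LIN28B and MCM7 fell (median -0.16). All calls of listed genes have an edgeR adjusted p under 0.05 over all genes, and no gene of these lists was called after paclitaxel. The medians over all genes were 0.07, 0.02 and -0.04 for doxorubicin, etoposide and MMS, with 42.5%, 17.2% and 10.4% of all genes called. After doxorubicin the share called was near that of all genes for speckle proteins, and below it for nonsense-mediated decay and microRNA factors. Counts near those shares are not read as responses of a list. Some of them lie outside the rule for named genes and were named after their values were seen. Whether the listed genes bear on the members was not tested.

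Genes outside the members were ranked by how closely their 8 within-line log2 ratios followed those of a member, over 10007 genes. The ratios of a line share DMSO libraries, and 2 of the 8 are the paclitaxel ratios behind the choice of members. The closest of so many genes over 8 ratios have high values in any case. The correlations are therefore descriptions. The 3 closest to MALAT1 were ARHGEF26 (Pearson r = 0.93), ARHGEF18 (0.92) and TIAM1 (0.91). The 3 closest to NEAT1 were DOK1, C7orf68 and CCNJL, each at 0.97. Closest to MIR17HG were CAMTA2 (0.99), HSPBAP1 (0.96) and BRD9 (0.96), and closest to GAS5 were RPF1 (0.98), HSPA9 (0.97) and CEBPZ (0.97).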

How the data were processed

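RNA-seq of total RNA from 11 libraries was used. The authors deposited whole-number read counts per gene symbol for each library. Base calls came from CASAVA 1.8.2 and alignments from TopHat2 2.0.8b, and reads were counted with HTSeq, per the submitters' processing notes, which name hg19 and mm9; the human build was taken. The strand setting and the selection of RNA are not stated in these sources. The 5 summary rows (reads aligned to several places were 28.4% to 37.5% of a library, reads outside genes 7.16% to 9.7%) stayed out of library sizes. Reads that fit several genes went uncounted (ambiguous 1.03% to 1.19%).

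Counts were fitted in R 4.3.3 with edgeR 4.0.16 (TMM, filterByExpr, robust quasi-likelihood F test, Benjamini-Hochberg over 15888 genes), with drug terms and 3 block levels (libraries of U2OS, of MDA-MB231 with plain titles and with 8hr titles), 4 residual degrees of freedom, 3 with the line term, and a common biological coefficient of variation of 0.213. SE values come from the fold change (log2) over the root of its F. Within a line, log2 ratios of CPM had 0.5 CPM added, with exact Clopper-Pearson 95% intervals. No pair of libraries agreed within sampling noise (chi-square per degree of freedom 7.64 to 230). The labels do not say whether the libraries of a line are separate cultures. Alternatives used DESeq2 1.42.0, limma 3.58.1 (voom), other scalings, filters, blocks and sets of libraries. The fit was tested on simulated counts.

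The members, lists and tests were chosen with earlier results of these data known. Named genes are, per list and drug, up to 4 called genes with the largest fold change of 1 sign in both lines and at least 5 CPM in each line (not all are printed), other called genes where the count was 5 or fewer, and the 3 most correlated genes (mean of at least 10 CPM) for 4 members. Lists were other snoRNA hosts, other nuclear RNAs, paraspeckle, speckle and snoRNP proteins, decay factors, microRNA factors, hosted snoRNAs and cell markers. A few listed genes are counted but not reported by name here.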

Additional observations from a re-analysis of the deposited data

Results flagged for a closer look

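For 6 of 40 pairs of a member and a drug the log2 ratio to DMSO lay on opposite sides of 0 in the 2 lines, with both counting intervals outside 0. Each rests on 1 library per line and drug, and none of these differences was tested. After doxorubicin MALAT1 was at 0.66 in U2OS and -0.17 in MDA-MB231. After etoposide SNHG3 was at -0.44 in U2OS and 0.47 in MDA-MB231, and ZFAS1 at -0.14 and 0.1. After MMS MALAT1 was at -0.19 in U2OS and 0.13 in MDA-MB231. After paclitaxel SNHG5 was at 0.34 in U2OS and -0.17 in MDA-MB231, and SNHG12 at 0.26 and -0.75. The 2 MDA-MB231 DMSO libraries differed by -0.31 in MALAT1, -0.45 in SNHG3 and SNHG12, 0.18 in SNHG5 and -0.15 in ZFAS1, which is as large as several of these ratios. Against the other MDA-MB231 DMSO library MALAT1 had the sign it has in U2OS, at 0.14 after doxorubicin and -0.18 after MMS.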

How the results depend on the processing

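Over 20 alternatives for each of 30 member and drug values (paclitaxel apart), 546 of 600 kept their side of the threshold, 36 lost the call and 18 gained one. The sign was opposite in 22 of the 600, all of values that were not called, such as SNHG3 after etoposide (0.07, from -0.44 to 0.52). The calls of SNHG1 and MIR17HG after doxorubicin held in all 20. With no block, 2 of 9 members were called after doxorubicin (5 with it), 0 after etoposide (1 with it) and 0 after MMS (3 with it). After etoposide DESeq2 called 3, limma-voom 2, no filter 2 and the fit of that drug's libraries 2, and after MMS DESeq2 called 5. Leaving out 1 library gave 4 to 5 members after doxorubicin, 0 to 1 after etoposide and 0 to 4 after MMS. For paclitaxel 0 genes were called, also with each library left out (0 to 0), and 30 with its libraries alone. The line term called 0 of 9 in 15 alternatives, and leaving out U2OS DMSO could not be fitted. Of the contrasts between drugs, added after the data were seen, doxorubicin against etoposide called 6 of 9 (2 with no block, 3 to 7 with 1 library left out), MMS against doxorubicin 6 (3 with no block, 0 to 6) and MMS against etoposide 3 (5 with no filter, 6 with a block for line alone, 0 with no block, 0 to 5). The causes were not tested. Counted without the minimum of 5 CPM, 22 of 72 member ratios passed 2-fold (17 to 25 over the alternatives), and of 480 single ratios 99 moved past their counting interval. With total-count scaling the median of all genes was at -0.19 after doxorubicin and 0.17 after etoposide in U2OS (0.06 and 0.02 with TMM). The block joins each drug library to the DMSO library of its line and title form. Beyond it, no paired analysis was possible because the labels give the drug libraries no shared replicate numbers. Depth limits MIR17HG, with 12 to 186 reads, and most snoRNA rows.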
